A study of Mus musculus with 2 samples.

Results

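Genes of the cornified envelope, the cross-linked protein shell that replaces the membrane of dead skin cells, were compared in mouse embryonic fibroblasts (MEFs) lacking Malat1 and in wildtype MEFs. The set held every gene whose symbol starts with Lce (late cornified envelope) or Sprr (small proline-rich), together with Lor, Ivl, Flg, Crct1, Casp14, Cdsn, Sbsn, Krtdap, Klk7, Calm4 and Tgm3, wherever a probe set of the array lists that gene alone. It came to 35 of the 18194 genes so covered, of which 15 were Lce genes, 9 Sprr genes and 11 others. The genes were chosen by name, in a set proposed because the knockout-minus-wildtype differences of Lce1h, Lce1i and other members on these same arrays were already known, so their values are a description and support no test.

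RNA came from 1 Malat1 knock-out culture and 1 wildtype culture, both of C57BL/6 MEFs made from embryos at day 13.5, kept for 2 weeks and left untreated, and each was hybridized to 1 Affymetrix Mouse430_2 array. MEFs are the mixed, mostly connective-tissue cells that grow out of a dissociated embryo, and Malat1 is a long noncoding RNA of the nucleus. The labels do not name the knock-out allele, nor how many embryos were pooled or their sex. With 1 array per genotype no difference has a replicate check and no p-value is given. Precision is limited by that number of arrays.

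The cornified envelope is built in the outermost living layers of stratified epithelia such as the epidermis. Keratinocytes first lay down scaffold proteins such as involucrin under the membrane, then loricrin, which makes up most of the shell, with small proline-rich proteins as cross-bridges and late cornified envelope proteins added near the end, and transglutaminases join them into one insoluble layer. Most of the structural genes lie side by side in the epidermal differentiation complex, a gene cluster that is on chromosome 3 in the mouse. The embryo's epidermis has not yet formed this shell at the age at which the MEFs were made, and fibroblasts are not known for making it.

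Malat1 itself was read first as a check of the labels, and 0 of its 7 probe sets lay above the floor in the knockout array, against 6 in the wildtype array. The floor is each array's median log2 signal over non-control probe sets, 5.44 for the knockout and 5.39 for the wildtype, and a gene at or above it is called measured. All 10 of 10 fibroblast marker genes were measured on both arrays. Sex-linked transcripts separated the arrays in the same way as genotype, with Xist measured in the knockout array alone and the Y-linked Eif2s3y, Kdm5d and Uty in the wildtype array alone, so that genotype, sex and culture cannot be told apart. In bulk RNA, more cells of a type and more RNA per cell cannot be told apart either. A gene is represented by its brightest probe set, and since probe sets differ in how brightly they read, signals are compared between arrays and not between genes.

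Upstream sequences of the genes that the results turn on are shown first, because closely related neighbours gave different readings. They are the 250 bases before the gene's start from RefSeq on build GRCm38.p6, written from 5′ to 3′ on the gene's strand, and 32 of the 35 genes had such an entry. In the Lce1 genes below, capitals mark a run that all of them share, 15 bases that begin 34 bases before each start. No shared run is longer, but another of 15 bases lies further upstream and is left in small letters. Lce1h and Lce1i were among the genes furthest above wildtype in the knockout array, and Lce1g, next to Lce1h, was below the floor on both arrays. The Lce1h and Lce1i probe sets are of a type in which some probes also match other transcripts.
Lce1h, chr3:92765066-92765315, minus strand: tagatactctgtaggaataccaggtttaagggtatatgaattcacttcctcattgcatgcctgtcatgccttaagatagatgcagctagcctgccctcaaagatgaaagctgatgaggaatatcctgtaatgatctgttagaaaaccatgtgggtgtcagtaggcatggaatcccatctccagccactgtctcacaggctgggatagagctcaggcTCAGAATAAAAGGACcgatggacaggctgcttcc
Lce1i, chr3:92778900-92779149, minus strand: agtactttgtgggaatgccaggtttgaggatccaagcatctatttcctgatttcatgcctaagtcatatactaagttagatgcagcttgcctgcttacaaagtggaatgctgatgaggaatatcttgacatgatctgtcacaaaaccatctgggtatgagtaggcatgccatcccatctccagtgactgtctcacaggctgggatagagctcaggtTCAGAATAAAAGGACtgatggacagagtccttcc
Lce1g, chr3:92752339-92752588, minus strand: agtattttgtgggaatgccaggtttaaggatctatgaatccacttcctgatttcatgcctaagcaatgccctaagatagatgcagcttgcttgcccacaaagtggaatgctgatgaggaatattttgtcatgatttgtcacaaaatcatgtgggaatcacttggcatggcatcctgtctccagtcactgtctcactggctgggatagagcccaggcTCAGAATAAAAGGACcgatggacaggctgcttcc

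In the next sequences capitals mark TATAAA, the core of the TATA box, and TGANTCA, a pattern that includes the site bound by AP-1 factors. N stands for any base, so the pattern is wider than that site. Each was searched on both strands, with no overlap between them where shown. Sprr2k was bright on both arrays, its relative Sprr2h was below the floor on both, and Sprr1a and Lor were measured on both and higher in the knockout array. The Sprr2h probe set is of a type that matches several transcripts.
Sprr2k, chr3:92432332-92432581, plus strand: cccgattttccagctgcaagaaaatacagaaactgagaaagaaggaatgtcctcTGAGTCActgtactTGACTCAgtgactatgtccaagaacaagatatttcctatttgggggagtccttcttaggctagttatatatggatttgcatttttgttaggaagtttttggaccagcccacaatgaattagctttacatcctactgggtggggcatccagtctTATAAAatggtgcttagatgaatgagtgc
Sprr2h, chr3:92385435-92385684, plus strand: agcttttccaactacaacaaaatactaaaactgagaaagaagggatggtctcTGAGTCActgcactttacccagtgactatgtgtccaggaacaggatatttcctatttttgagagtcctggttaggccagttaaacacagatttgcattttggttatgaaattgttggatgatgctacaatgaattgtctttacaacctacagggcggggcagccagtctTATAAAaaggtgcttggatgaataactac
Sprr1a, chr3:92485882-92486131, minus strand: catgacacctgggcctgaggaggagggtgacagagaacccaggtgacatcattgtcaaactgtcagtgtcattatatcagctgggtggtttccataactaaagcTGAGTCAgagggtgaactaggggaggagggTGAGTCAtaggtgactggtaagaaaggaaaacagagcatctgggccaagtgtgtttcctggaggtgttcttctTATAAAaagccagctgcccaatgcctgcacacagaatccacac
Lor, chr3:92083143-92083392, minus strand: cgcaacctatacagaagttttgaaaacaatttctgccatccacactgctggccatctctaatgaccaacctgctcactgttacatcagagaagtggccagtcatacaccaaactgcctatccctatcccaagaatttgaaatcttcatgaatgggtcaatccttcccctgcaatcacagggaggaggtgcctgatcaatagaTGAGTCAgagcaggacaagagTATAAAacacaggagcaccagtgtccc

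Of the bases aligned outside gaps, 85.9% were identical between Lce1h and Lce1g and 82.7% between Lce1h and Lce1i, against a median of 72.5% over 45 pairs of Lce1 genes. Sprr2k and Sprr2h, one measured and the other not, shared 81.9%, the highest of 28 Sprr pairs, whose median was 67.4%. TGANTCA stood upstream of 12 of the 32 genes, against 6.75% of all 32851 RefSeq windows of this length. It was found upstream of 4 of the 13 genes measured on both arrays that had an entry and of 7 of the 17 genes below the floor on both. TATAAA stood upstream of 15 of the 32 genes, against 12.4% of all windows, with 4 of the 13 measured genes and 9 of the 17 dim ones. Sbsn, the member furthest below wildtype in the knockout array, carried 1 TGANTCA match, and no Lce gene with an entry carried any. These matches describe the letters of the window and not factor binding. Whether a gene was measured or dim also depends on how brightly its probe set reads, so the splits are not by expression alone.

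**Figure D1:**
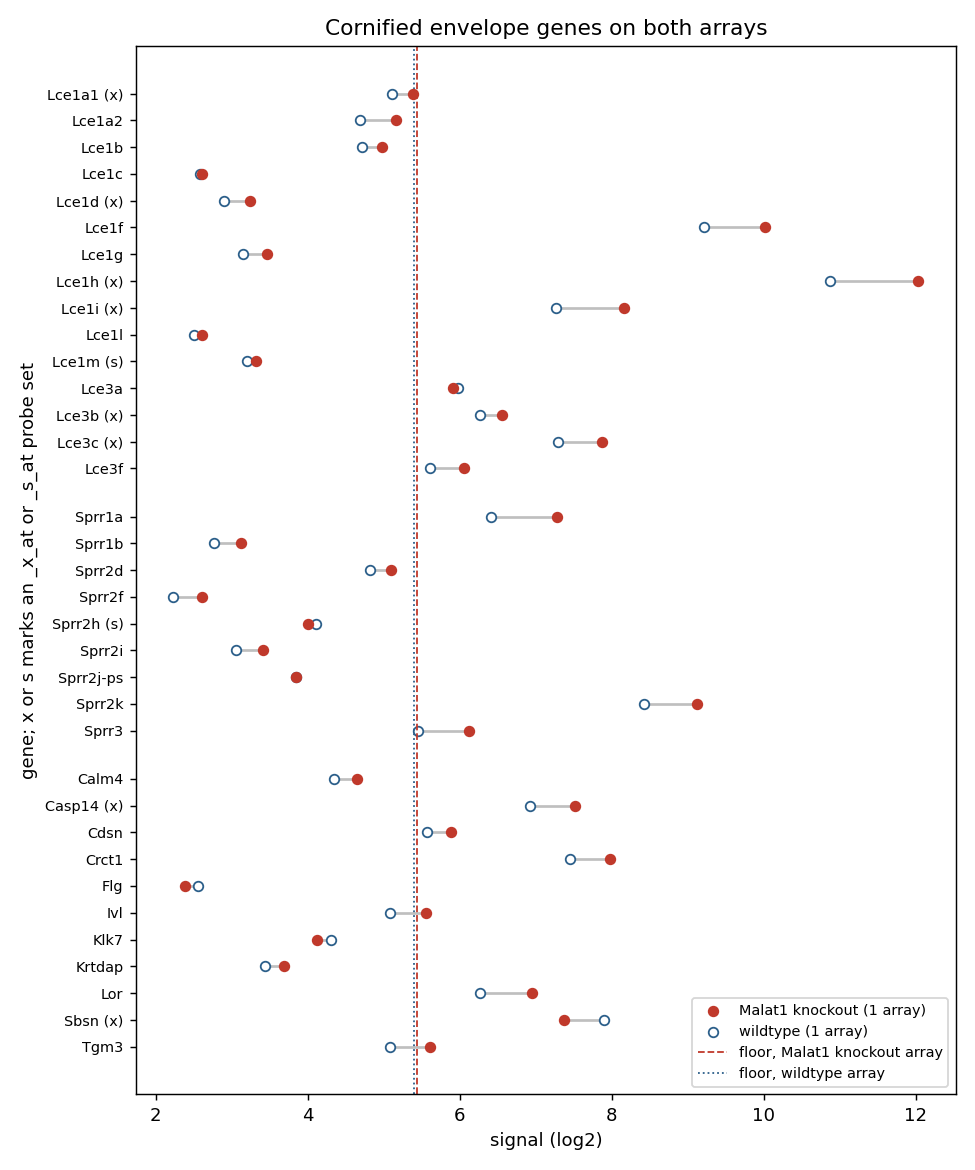
Log2 signal (horizontal axis) of the 35 genes (rows, grouped as Lce, Sprr and other genes) in the Malat1 knockout array (filled) and the wildtype array (open), with each array's floor as a vertical line. The filled point lies to the right of the open one for 13 of the 15 genes above the floor on both arrays, and Sbsn and Lce3a are the exceptions.

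Of the 35 genes, 15 were measured on both arrays, 2 in the knockout array alone and 18 on neither. Of the 15, 13 were higher and 2 lower in the knockout array. The median difference (knockout minus wildtype) was 0.60 on the log2 scale, in a range from -0.53 to 1.16. Over all 11295 genes measured on both arrays the median was -0.05, and 39.2% were higher in the knockout array. A size of 1.5-fold was reached in the upward direction by 8 of the 15, against 0.832% of all measured genes, and in the downward direction by 0, against 1.61%. A size of 2-fold was reached upward by 1, Lce1h, against 0.0708%. Without _x_at and _s_at probe sets 10 members were measured on both arrays and 5 of them reached 1.5-fold upward, against 0.769% of all genes so measured. With a floor raised to the 75th percentile 3 members were measured and all 3 reached it, against 0.336%. Because the set was chosen with these values known, the shares are set side by side and nothing is read from them.

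The spread of differences depended on signal, so the background was also taken in bands of mean signal. Among the 2858 measured genes with a mean under 7 the SD of the difference was 0.29 and 1.68% were at least 1.5-fold higher in the knockout array. Among the 4398 genes from 7 to 9 the SD was 0.24 and the share 0.705%, and among the 4039 genes at 9 or more the SD was 0.18 and the share 0.371%. The members at least 1.5-fold higher numbered 3 of 7 in the lowest band (Lor, Sprr1a, Sprr3), 3 of 6 in the middle band (Casp14, Lce1i, Sprr2k) and 2 of 2 in the highest (Lce1f, Lce1h).

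**Figure D2:**
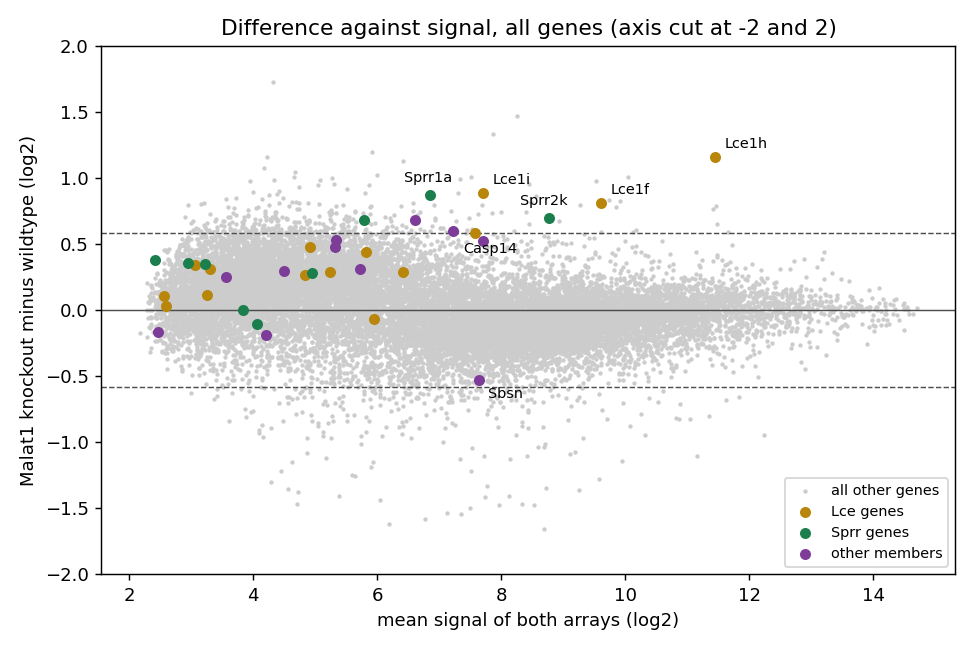
Difference between the arrays (Malat1 knockout minus wildtype, log2, vertical axis) against the mean log2 signal (horizontal axis) for every gene, with the Lce, Sprr and other cornified envelope genes coloured and dashed lines at 1.5-fold. The axis leaves out 9 genes beyond 2 log2 units, none of them coloured. Lce1h and Lce1f sit above the 1.5-fold line at signals where few genes do, while most of the dimmest coloured genes lie between 0 and 0.5.

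The Lce1 genes, whose products are added late to the envelope, split into 3 genes measured on both arrays and 8 below the floor on both. Lce1h read 12.03 in the knockout array and 10.87 in the wildtype array, 2.24-fold higher and the 4th largest upward difference of the 11295 measured genes. Lce1i read 8.16 in the knockout array and 7.27 in the wildtype array, 1.85-fold higher and 12th in that order. Both readings come from _x_at probe sets, a type in which some probes also match other transcripts, so which Lce1 transcripts were bound is not known from them.

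Lce1f gave a reading from 2 probe sets of the type without that mark. The brighter read 10.02 in the knockout array and 9.21 in the wildtype array, 1.75-fold higher, and the dimmer 6.44 and 6.05 in the same order, 1.30-fold higher. Both probe sets of Lce1f therefore read higher in the knockout array, the dimmer one by less. The 8 dim Lce1 genes (Lce1a1, Lce1a2, Lce1b, Lce1c, Lce1d, Lce1g, Lce1l and Lce1m) read 2.60 to 5.39 in the knockout array and 2.50 to 5.10 in the wildtype array. Each was higher in the knockout array, by 0.03 to 0.48. Of the genes below the floor on both arrays 71.8% of 6299 read higher in the knockout, and their median was 0.15, while that of these 8 was 0.27. Lce1g, the relative of Lce1h shown above, read 3.46 in the knockout array and 3.15 in the wildtype array.

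The Lce3 genes, known in human skin for being induced when the barrier is injured, were all 4 measured on both arrays, with smaller differences. Lce3c read 7.87 in the knockout array and 7.29 in the wildtype array, a difference of 0.58 that lay just short of 1.5-fold. Lce3f read 6.05 in the knockout array and 5.61 in the wildtype array, and Lce3b 6.56 in the knockout array and 6.27 in the wildtype array. Lce3a went the other way, at 5.91 in the knockout array and 5.98 in the wildtype array, a difference of -0.07. The Lce3b and Lce3c probe sets are of the _x_at type, and those of Lce3a and Lce3f are not.

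The Sprr genes, short proline-rich proteins that bridge other envelope proteins, had 3 measured members, all higher in the knockout array. Sprr1a read 7.28 in the knockout array and 6.41 in the wildtype array, 1.83-fold higher. Sprr2k read 9.12 in the knockout array and 8.42 in the wildtype array, 1.62-fold higher. Sprr3 read 6.13 in the knockout array and 5.44 in the wildtype array, a difference of 0.68, and its wildtype signal was only just above the floor. None of these 3 probe sets is of the _x_at or _s_at type.

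The other 6 Sprr genes were below the floor on both arrays, at 2.61 to 5.10 in the knockout array and 2.23 to 4.81 in the wildtype array. Sprr1b, Sprr2d, Sprr2f and Sprr2i were 0.28 to 0.38 higher in the knockout array. Sprr2h, read by an _s_at probe set, a type that matches several transcripts with all its probes, was at 4.01 in the knockout array and 4.11 in the wildtype array. The pseudogene Sprr2j-ps had exactly the same value on both arrays, 3.84, as 418 genes in all did. A further 3 probe sets that list several Sprr2a copies together fall outside the set.

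Loricrin, the most abundant protein of the mature envelope in epidermis, had 3 probe sets for its gene Lor, and they differed. The brightest read 6.95 in the knockout array and 6.27 in the wildtype array, 1.61-fold higher. The next, of the _s_at type, read 5.89 in the knockout array and 5.85 in the wildtype array, and the dimmest, below the floor, 4.14 in the knockout array and 3.998 in the wildtype array. The difference of Lor thus ranged from 0.04 to 0.69 over its probe sets. Crct1, a cysteine-rich protein encoded beside the Lce genes, read 7.98 in the knockout array and 7.45 in the wildtype array, 1.44-fold higher.

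Involucrin, the early scaffold protein, was at the limit of measurement. Of its 2 probe sets, the one with the higher mean was above the floor in the knockout array alone, at 5.56 in the knockout array and 5.09 in the wildtype array, a bound of at least 1.12-fold higher. The other Ivl probe set passed the floor in the wildtype array only, at 5.18 in the knockout array and 5.40 in the wildtype array. The direction for Ivl therefore depends on the probe set. Flg, which encodes profilaggrin, the precursor of the protein that bundles keratin filaments, was far below the floor, at 2.39 in the knockout array and 2.56 in the wildtype array.

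Enzymes of cornification were dim or rested on a single probe set. Casp14, the caspase that takes part in processing profilaggrin, read 7.52 in the knockout array and 6.92 in the wildtype array, 1.51-fold higher, at an _x_at probe set, and 4.25 and 4.03 in the same order at its other probe set, below the floor. This is the member just past the 1.5-fold mark, and Lce3c is the one just short of it. Tgm3, a transglutaminase that cross-links envelope proteins, was above the floor in the knockout array alone, at 5.61 in the knockout array and 5.08 in the wildtype array, a bound of at least 1.16-fold higher. Its other probe set was below the floor on both arrays. Klk7, a protease that cuts the junctions of dead skin cells before they are shed, was below the floor, at 4.12 in the knockout array and 4.31 in the wildtype array.

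Among the remaining genes, Cdsn, which encodes corneodesmosin, an adhesive protein of those junctions, read 5.88 in the knockout array and 5.57 in the wildtype array, 1.24-fold higher and near the floor. Calm4, a calmodulin-like protein of skin, and Krtdap, a secreted protein of differentiating keratinocytes, were below the floor, at 4.64 and 3.69 in the knockout array and 4.35 and 3.44 in the wildtype array.

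Sbsn, which encodes suprabasin, a secreted protein of the upper epidermis, stood apart from the rest of the set. It read 7.37 in the knockout array and 7.90 in the wildtype array, a difference of -0.53, at an _x_at probe set. A second Sbsn probe set, of a type specific to one gene, read 7.05 in the knockout array and 7.62 in the wildtype array, a difference of -0.57. The third was below the floor and differed by -0.01. Both measured probe sets of Sbsn were thus lower in the knockout array, by less than 1.5-fold.

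Position was then compared, since 28 of the 35 genes lie on chromosome 3. From S100a1 to S100a10, the ends of the epidermal differentiation complex, RefSeq lists 70 protein-coding genes, of which 48 had a probe set of their own, 27 of them in the set. Of the members on chromosome 3, 12 were measured on both arrays. Of these, 11 read higher in the knockout, and the median difference was 0.68. Over all 11295 genes measured on both arrays 39.2% read higher, with a median of -0.05. Of the 7 members elsewhere, 3 were measured on both arrays (Casp14, Cdsn and Sbsn), and 2 of these were higher.

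Of the 21 other genes of the complex, 7 were measured on both arrays, with 1 higher, 5 lower and 1 equal, and a median of -0.14. Among all 11295 genes measured on both arrays 6751 were lower, and the median was -0.05. The other 14 genes of the complex outside the set lay under both floors, and 11 of these were higher in the knockout, with a median of 0.25. Of the 18 members below the floor on both arrays 14 were higher, with a median of 0.27. Both counts are near the share over all 6299 genes below both floors, 71.8% higher with a median of 0.15. The difference between members and neighbours was not tested. Of the 7 measured neighbours 6 were S100 genes, which encode small calcium-binding proteins at the edges of the complex and are active in many cell types. S100a4, a gene typical of fibroblasts, read 12.68 in the knockout array and 13.12 in the wildtype array. S100a16 differed by -0.25, S100a10 by 0.06, and S100a6 read 14.21 on both arrays. Prr9, next to Lor and the only other measured gene between the S100 blocks outside the set, differed by -0.15, at 6.99 in the knockout array and 7.13 in the wildtype array. The large filament-binding proteins at the far end, Hrnr, Rptn, Tchh and Tchhl1, relatives of Flg, were below the floor on both arrays. Measured members and members below the floor were interspersed along the cluster, with Lce1g, below the floor, between Lce1f and Lce1h.

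**Figure D3:**
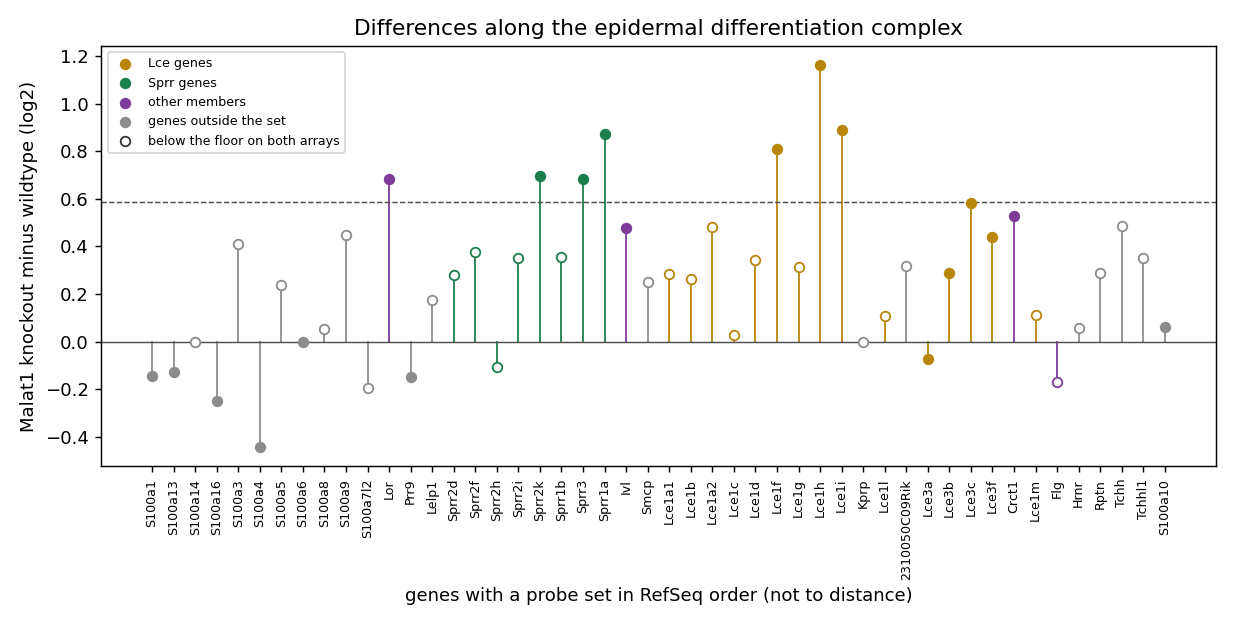
Difference between the arrays (Malat1 knockout minus wildtype, log2, vertical axis) for the 48 genes of the epidermal differentiation complex with a probe set, in RefSeq order (horizontal axis, not to distance). Open points mark genes under both floors, and the dashed line marks 1.5-fold. The filled Sprr and Lce points lie mostly above 0.4, and the filled grey points, genes outside the set, between -0.44 and 0.06.

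Cornified envelope genes are normally expressed by keratinocytes, so markers of skin layers and of other epithelia were read on the same arrays. Their part in the differences above was not tested. Of 8 basal keratinocyte genes, 1 was measured on both arrays, the integrin gene Itga6, which read 9.24 in the knockout array and differed by 0.24. The keratin Krt5, which defines the basal layer, was above the floor in the knockout array alone, at 5.57 in the knockout array and 5.26 in the wildtype array (at least 1.13-fold higher), and its partner Krt14 was below it, at 4.25 in the knockout array and 4.08 in the wildtype array. The summed linear signal of the 8 genes was 797 in the knockout array and 670 in the wildtype array. Most of both sums came from Itga6, and 6 of the 8 genes were below the floor on both arrays.

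Of 9 spinous keratinocyte genes, which mark the layer above, 4 were measured on both arrays and all 4 read lower in the knockout. So did 6751 of all 11295 genes measured on both arrays. The other 5 spinous genes, below the floor on both arrays, all read higher, by 0.09 to 0.46. Of all 6299 genes below both floors 71.8% read higher, with a median of 0.15. The median of the 4 measured genes was -0.09, and it turned to 0.027 under quantile normalization. The desmosome gene Dsp was at 6.17 in the knockout array and 6.68 in the wildtype array, Krt10 differed by -0.15, and the defining keratin Krt1 was below the floor, at 4.604 in the knockout array and 4.42 in the wildtype array. The summed linear signal of all 9 genes was 677 in the knockout array and 718 in the wildtype array. Of 12 further genes of the granular layer, where the envelope is assembled, 10 were below the floor on both arrays, among them Tgm1, its main transglutaminase, at 4.81 in the knockout array and 4.53 in the wildtype array. The scaffold gene Evpl was measured in the knockout array alone, at 5.80 in the knockout array and 5.37 in the wildtype array (at least 1.32-fold higher), and the protease inhibitor Cst6 differed by 0.17. Summed, all 12 genes gave 373 in the knockout array and 303 in the wildtype array.

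Transcription factors of epidermal differentiation had 5 of 13 members measured on both arrays, 2 higher and 3 lower. For this list and the next, the share over all 11295 genes measured on both arrays was 39.2% higher, with 6751 lower. Trp63, which sets the keratinocyte lineage, was below the floor, at 4.72 in the knockout array and 3.996 in the wildtype array. Nfe2l2, Klf4 and Cebpb, which fibroblasts also express, differed by -0.55, -0.53 and -0.50, and Gata3 by 0.29. The summed linear signal of all 13 genes was 3116 in the knockout array and 4306 in the wildtype array. Genes of the epidermal lipid barrier had 8 of 9 members with a probe set and 5 measured on both arrays, 2 higher and 3 lower. Ugcg, which makes glucosylceramide, differed by -0.46 and the lipoxygenase Aloxe3 by 0.32, while the lipid transporter Abca12 was below the floor. All 8 genes with a probe set summed to 3311 in the knockout array and 3626 in the wildtype array.

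Markers of simple epithelium and of periderm, the transient outer layer of embryonic skin, had 9 of 17 members measured on both arrays, 7 higher and 2 lower, with a median of 0.27. All 11295 genes measured on both arrays had 39.2% higher and a median of -0.05. Cldn4, a tight junction claudin, read 6.99 in the knockout array and 5.86 in the wildtype array, and the desmosome protein gene Perp 8.37 in the knockout array and 7.63 in the wildtype array. Cldn3 differed by 0.54, while Sfn, an epithelial 14-3-3 protein, differed by -0.62. Of the defining markers, Epcam read 7.51 in the knockout array and 7.24 in the wildtype array at an _x_at probe set, and Cdh1, which encodes E-cadherin, was far below the floor, at 3.19 in the knockout array and 2.66 in the wildtype array. The summed linear signal of all 17 genes was 1951 in the knockout array and 1586 in the wildtype array.

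Genes that keratinocytes switch on under stress had 2 of 9 members measured on both arrays. Serpinb2, an inhibitor of plasminogen activators that is also a component of the envelope, read 8.93 in the knockout array and 7.98 in the wildtype array. The stress keratins were Krt6a, which differed by 0.22, and Krt6b, Krt16 and Krt17, which were below the floor on both arrays. The summed linear signal of all 9 genes, most of it from Serpinb2, was 698 in the knockout array and 438 in the wildtype array. Of the 10 fibroblast genes 8 read lower in the knockout, and the list had a median of -0.36. So did 6751 of all 11295 genes measured on both arrays, whose median was -0.05. The collagen gene Col1a1 and the receptor gene Pdgfra differed by -0.95 and -0.73, S100a4 by -0.44 and Dcn by 0.74. The summed linear signal of all 10 genes was 84272 in the knockout array and 96514 in the wildtype array.

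**Figure D4:**
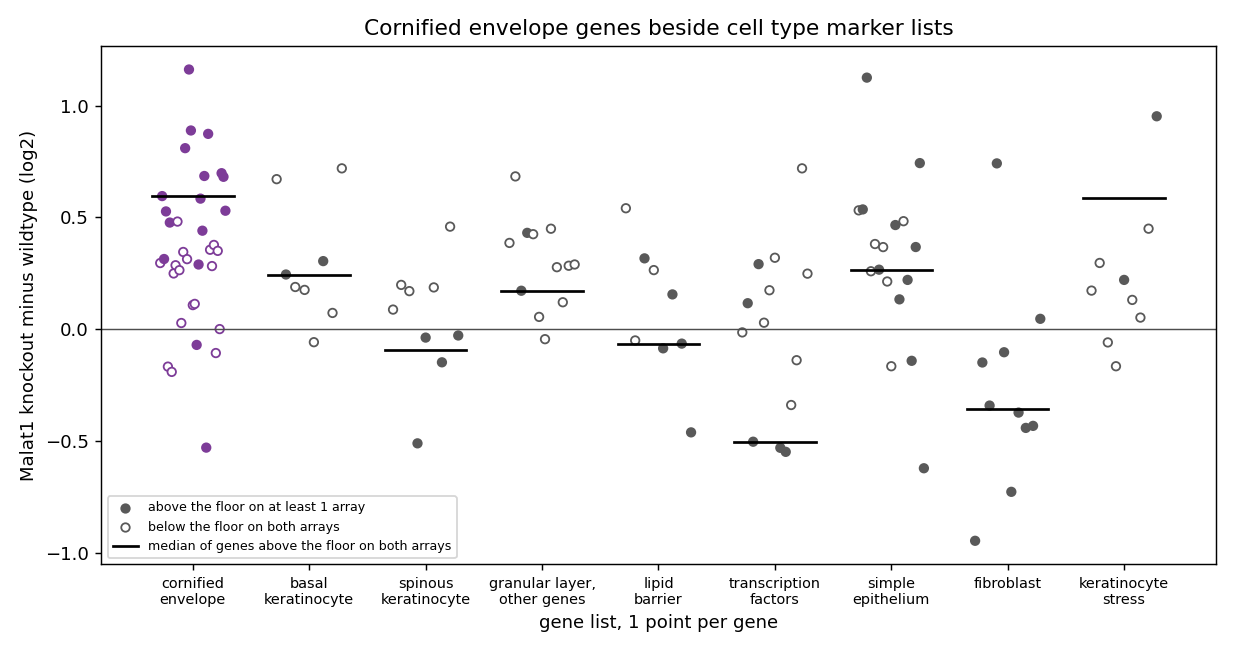
Difference between the arrays (Malat1 knockout minus wildtype, log2, vertical axis) for each gene of the cornified envelope set and of 8 marker lists (horizontal axis), with open points below the floor on both arrays. Bars are medians of the genes above the floor on both arrays, which is a single gene for the basal and granular lists. The bar of the cornified envelope genes lies at 0.60, that of simple epithelium at 0.27 and that of the fibroblast genes at -0.36.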

How the data were processed

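The deposited table holds 1 log2 signal for each probe set of each array, as the authors summarized it. The log2 scale is inferred from a range of 2.09 to 14.71. The sources used here do not give the summarization, normalization or software. The labels' protocols record 100 ng of total RNA, labelled with biotin. Of 45037 probe sets besides 64 controls, 34958 had 1 gene symbol in the platform's annotation. The 35 members had 44 probe sets, 8 of them ending in _x_at and 3 in _s_at, and RefSeq of GRCm38.p6 held all 35 under the same symbols.

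Values were used as deposited, in Python 3.11.15 with pandas 2.3.3. For a gene measured on 1 array, the bound sets its signal against the other array's floor. No p-value was computed, since each genotype has 1 array. Alternatives were 3 other scalings (median, quantile and loess with a span of 0.3), 3 other floors, 16 or 64 added to linear values, other ways to combine probe sets, no _x_at or _s_at probe sets, and sizes of 2-fold and 3-fold. The genes named are all members, Malat1, and from each list its defining markers and up to 4 genes with the largest difference among those measured; Krt6b, Krt16, Krt17, Abca12 and the genes of the complex named in the text beyond these were chosen after their values were seen, as were the sequences and motifs. The members and lists were chosen with earlier results of these data known.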

Additional observations from a re-analysis of the deposited data

How the results depend on the processing

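No paired analysis was possible because there is only 1 array of either genotype. Across 11 other settings of scaling, floor, pseudocount and probe set choice, the medians of the measured members and of the Lce and Sprr genes stayed above 0, as did that of the other members in the 10 settings that left any measured. Without a floor all 35 members counted as measured and these medians were 0.35, 0.31, 0.36 and 0.31. A floor at the 75th percentile left 3 members, all 3 at least 1.5-fold higher in the knockout array (0.336% of all measured genes), with medians of 0.81 for all and 0.99 for Lce. With the median difference over all probe sets the other genes had a median of 0.31. The 8 members at least 1.5-fold higher became 5 of 10 measured without _x_at and _s_at probe sets (0.769% of all measured genes, against 0.832%), 4 of 15 with 64 added to linear values (0.248%), 1 at 2-fold and 0 at 3-fold. They numbered 10 under each of 3 other scalings, where 1.19% to 1.46% of all measured genes reached that size. Leaving out Lce1h and Lce1i, an alternative chosen after seeing the data, gave 6 and a median of 0.58.

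The median of the other genes of the complex turned to 0.057 without a floor. The median over all measured genes turned to 0.011, 0.023 and 0.012 under median, quantile and loess scaling and to 0.014 without a floor. That of the spinous list turned to 0.027 and 0.0086 under quantile and loess scaling and to 0.087 without a floor. That of the lipid list turned to 0.013, 0.0092 and 0.052 under the same settings and to 0.074 with the mean or median over probe sets, and that of the transcription factors to 0.029 without a floor. Median scaling sets the median difference of the measured probe sets, -0.06 as deposited, to 0. Quantile scaling gives both arrays the same distribution, and loess scaling removes the fitted trend of the difference with signal. These scalings therefore shift the median over all genes by design. A floor changes which genes count, and the cause of the other turns of the lists was not tested. Lor was short of 1.5-fold with the mean (0.36) or median (0.14) over its probe sets. Casp14 was short with that median too (0.40). With 16 added to linear values Casp14 (0.54) and Sprr3 (0.53) were short. The members at least 1.5-fold higher numbered 7 with the mean (0.726% of all measured genes), 6 with the median (0.505%) and 6 with 16 added (0.443%).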
